A study of Homo sapiens with 33 samples.

Results

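Among 10 established p53 target genes, GADD45A was the only one higher with every base editor than with the nickase alone. In the fit over all libraries CDKN1A and MDM2 did not pass the test in any of these comparisons. CDKN1A passed it in some under other settings, and MDM2 passed it when a particular library was left out. The 10 genes are CDKN1A, MDM2, GADD45A, BTG2, ZMAT3, PPM1D, CCNG1, RRM2B, TP53I3 and TP53INP1. They were taken by symbol from the deposited table of read counts, 10 of its 26475 genes, and all 10 passed the filter on low counts that left 14613 genes for testing. The cells were HEK293T, derived from human embryonic kidney. They received plasmids, GFP-fluorescent cells were sorted after 36 to 40 h, and their RNA was sequenced in 33 libraries, 3 for each of 11 groups. In 5 groups the guide RNA was HEKsite2 and the construct was nCas9, ABEmax, miniABEmax-V82G, Target-AID or SpACE. In 5 others the same constructs came with the RNF2 guide, and the last group, GFP, had no guide. nCas9 is the Cas9 nickase that carries no deaminase here, and the series design names it and GFP as the negative controls. Every editor was made together with EGFP from 1 transcript through a P2A peptide. ABEmax and miniABEmax-V82G are adenine base editors, Target-AID is a cytosine base editor, and SpACE acts on both bases. In the count table the SpACE columns bear the letters UGI, and the sample labels are silent on it. All groups share the cell line, transfection and the GFP gate, so cells that took up no plasmid are not among the controls. Whether replicates came from separate cultures is not stated, so each p-value reflects the spread between libraries alone, and that spread may be technical.

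The transcription factor p53 is stabilised after DNA damage and other stress and switches on genes that stop the cell cycle, repair DNA or start cell death. Some of its targets close a loop: MDM2 is the ligase that marks p53 for degradation, and PPM1D (WIP1) is a phosphatase that removes activating phosphates from p53 and its kinases. HEK293T cells carry the large T antigen of the virus SV40, which binds p53 and blocks much of its activity.

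Total counts ran from 6790209 to 11200406 per library. HEK293 line markers (NEFL, NEFM, INA, VIM, KRT8, KRT18, PAX2 and CDH2) were present in all groups, with a summed level, in CPM (the counts of a gene scaled to a common library size), of 563 to 593 in the Target-AID libraries and 640 to 796 in all others. Of the 7 tested, 5 were lower in Target-AID than in nCas9 with HEKsite2 and 6 with RNF2. The 6 liver markers summed to 1.4 to 2.13 CPM in Target-AID, where SERPINA1 was called higher, and to at most 0.972 CPM in the other libraries. The list of blood and immune markers summed to 7440 to 11200 CPM in the Target-AID libraries, carried by the globin genes HBB and HBD, and to at most 5.53 CPM in all other libraries. With the globin and growth hormone genes left out of the counts, 200 of 200 member results kept their side of the threshold and, where called, their direction.

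Per kilobase of exon (GENCODE 29, GRCh38), CCNG1, which encodes cyclin G1, was the most abundant of the 10 genes in all groups, with group means of 138 to 174 CPM per kb. MDM2, at 27.4 to 40.2 CPM per kb, came next in every group but ABEmax with RNF2, where PPM1D did (31.2 against 28.9). PPM1D lay at 18.4 to 31.2, CDKN1A, which encodes the cell cycle inhibitor p21, at 19.5 to 28.9, and GADD45A, a stress sensor that binds cell cycle and kinase partners, at 14.3 to 28.7 CPM per kb. RRM2B, the p53-inducible subunit of ribonucleotide reductase, lay at 12.1 to 20.3 and BTG2, an antiproliferative partner of the deadenylase complex, at 10.3 to 13.2 CPM per kb. TP53INP1, a promoter of cell death and autophagy, lay at 5.44 to 7.12 and ZMAT3, an RNA-binding zinc finger protein, at 4.54 to 5.82 CPM per kb. TP53I3 (PIG3), an oxidoreductase tied to oxidative stress, was lowest at 1.16 to 2.13 CPM per kb. Some reads cannot be assigned with certainty: GENCODE places DINOL opposite CDKN1A, CPM opposite MDM2, FAM228B opposite TP53I3, NDUFAF6 opposite TP53INP1, RNU6-623P opposite PPM1D and AC025423.4 opposite MDM2, and the strand setting of the counting is not given in the sources used here. AC025423.1 and AC025423.2 overlap MDM2 on its own strand, where no strand setting would separate their reads.

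**Figure D1:**
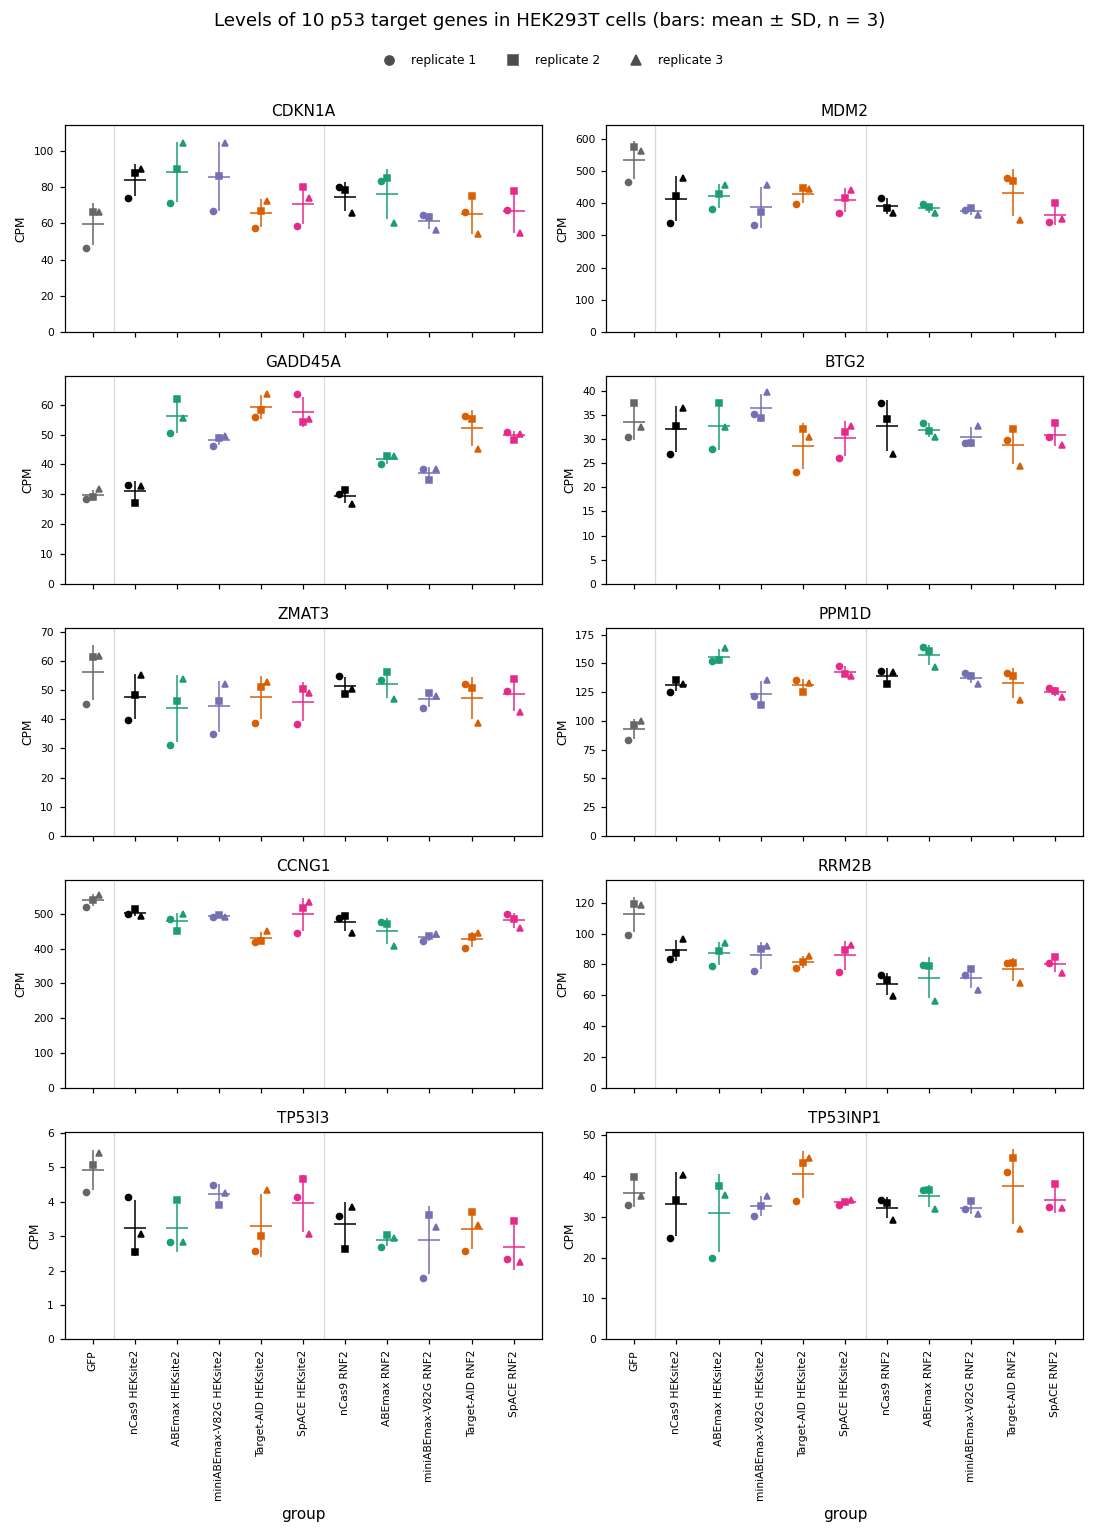
Levels in CPM (linear axis from 0) of the 10 genes in each of the 33 libraries, by group; symbols mark replicates 1, 2 and 3, horizontal bars the mean and vertical bars the SD of 3 libraries. GADD45A lies between 26.8 and 33.1 CPM in the 9 control libraries and between 34.8 and 63.7 CPM in the 24 editor libraries.

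Since all members are known p53 targets, their promoters were searched for the p53 half-site, the 10-base consensus of which a full p53 site holds 2. The RefSeq table (GRCh38.p14, 250 bases before to 50 after the start) matched 7 of the 10 genes. It had no entry for GADD45A, RRM2B and TP53INP1, so their promoters were not searched. The consensus reads the same on both strands, so 1 search covers both. With up to 2 mismatches outside its 4 core bases, 3 of the 7 promoters held a half-site, against 68% of 27305 promoters. With 0 mismatches 0 of 7 did, against 6.54%, and 0 of 7 held 2 half-sites in a row with up to 2 mismatches each, against 6.42%. To let the letters be compared, the matches upstream of the start are shown 5′ to 3′ on the gene's strand, with the half-site in capitals and 10 bases on each side. Each of these has 2 mismatches. A further match, in MDM2 at position 29 after the start, has 1 mismatch and is not printed. A match is a description of these letters and not a binding site, and sites in introns were not searched.
MDM2, half-site chr12:68807946-68807955, plus strand, position -226 from the start: cacagcgccaAACCTTGCTGgctccgcgcc
ZMAT3, half-site chr3:179071867-179071876, minus strand, position -67: gctccgccaaGCACATGCGCagtggcgacg
TP53I3, half-site chr2:24085021-24085030, minus strand, position -196: cttgaagtgaGAGCTAGAATcgcactttct
TP53I3, half-site chr2:24084946-24084955, minus strand, position -121: aaaatctgatTTGCTTGCTTctaactttgc

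GADD45A (ENSG00000116717, chr1:67685061-67688338, plus strand) rose with all 4 editors and both guides against nCas9 with the same guide. This comparison asks how an editor differs from the nickase alone. The deaminase cannot be told apart in it from any other part in which the constructs differ. With the HEKsite2 guide nCas9 libraries held 33.1, 27.1 and 32.9 CPM. ABEmax libraries held 50.6, 62.1 and 55.7 CPM, a log2 fold change of 0.85 ± 0.0904 (SE, 3 libraries against 3 in all such comparisons), or 1.8-fold (adjusted p = 3e-09, edgeR's quasi-likelihood test). miniABEmax-V82G libraries held 46.2, 49 and 49.6 CPM, a log2 fold change of 0.63 ± 0.0895. In every one of these libraries the level was above the highest nCas9 library. Target-AID libraries held 55.9, 58.3 and 63.7 CPM, a log2 fold change of 0.93 ± 0.0875. SpACE libraries held 63.5, 54.3 and 55.4 CPM, a log2 fold change of 0.89 ± 0.088. The 4 editors thus gave 1.55- to 1.9-fold higher levels with HEKsite2, with no overlap between any editor group and nCas9.

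With the RNF2 guide the nCas9 libraries held 30.3, 31.4 and 26.8 CPM of GADD45A. ABEmax libraries held 40.1, 42.9 and 42.9 CPM, a log2 fold change of 0.51 ± 0.0925. miniABEmax-V82G libraries held 38.4, 34.8 and 38.4 CPM, a log2 fold change of 0.33 ± 0.0942 (adjusted p = 0.0161). This is the smallest of the 8 rises, and it lost its call without miniABEmax-V82G replicate 1 (adjusted p = 0.0667), without its replicate 3 (0.0626) or without nCas9 replicate 3 (0.091). Target-AID libraries held 56.1, 55.2 and 45.2 CPM, a log2 fold change of 0.82 ± 0.0888, and SpACE libraries 50.9, 48.2 and 50.1 CPM, a log2 fold change of 0.75 ± 0.0897. Every editor library was again above every nCas9 library. Over all genes tested, 1.16% were called higher in all 8 of these comparisons and 0.876% lower in all 8, so GADD45A shares its pattern with 170 genes in all.

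The GFP libraries held 28.3, 29.2 and 31.8 CPM of GADD45A, and nCas9 did not differ from them beyond the spread with HEKsite2 (log2 fold change 0.07, 95% interval -0.12 to 0.26) or with RNF2 (-0.01, -0.20 to 0.18). In the order of group means, the 3 control groups came first and overlapped each other. Next came miniABEmax-V82G and ABEmax with RNF2, each without overlap with its neighbours, and then the other 6 editor groups, where each group overlapped the next.

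**Figure D2:**
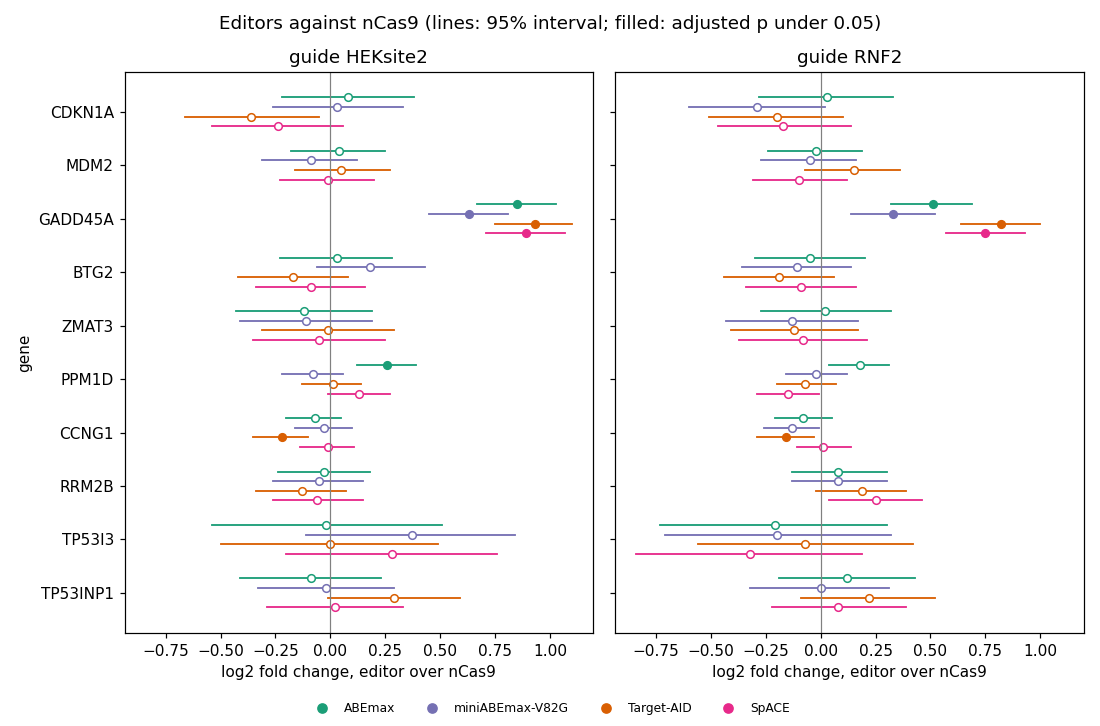
Log2 fold change of each gene in an editor group over nCas9 with the same guide (left HEKsite2, right RNF2); lines are 95% intervals from the edgeR fit, colours are editors, and filled points have an adjusted p under 0.05. Only GADD45A has filled points for all 4 editors with both guides; the other filled points are PPM1D for ABEmax with HEKsite2 and CCNG1 for Target-AID with both guides.

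The other 9 genes gave 3 calls in these 8 comparisons. With HEKsite2, 2 of 10 members were higher and 0 lower in ABEmax, where 8.31% of all tested genes were higher and 7.55% lower. In miniABEmax-V82G 1 member was higher and 0 lower (background 5.02% and 5.32%), in Target-AID 1 was higher and 1 lower (21.5% and 19.1%), and in SpACE 1 was higher and 0 lower (10.7% and 10.2%). With RNF2 the counts were 1 and 0 in ABEmax (6.51% and 4.66%), 1 and 0 in miniABEmax-V82G (6.88% and 5.72%), 1 and 1 in Target-AID (19.4% and 15.8%) and 1 and 0 in SpACE (8.03% and 6.68%). The members' counts are thus near the background of each comparison. Their median log2 fold change lay between -0.09 and 0.03, beside -0.01 to 0 for all genes tested.

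Of the 2 genes named above as feeding back on p53, PPM1D rose with ABEmax and HEKsite2. The ABEmax libraries held 152, 153 and 163 CPM against 125, 135 and 132 CPM in nCas9, a log2 fold change of 0.26 ± 0.0689 (adjusted p = 0.00853). The groups did not overlap, but the call was lost without ABEmax replicate 3 or without nCas9 replicate 1 (adjusted p = 0.0519 each). With RNF2 the ABEmax libraries held 164, 161 and 147 CPM against 144, 132 and 142 CPM, a log2 fold change of 0.18 that did not pass the test (adjusted p = 0.0875) and passed it with only the groups compared (0.0456). Both ABEmax groups headed the order of PPM1D levels, at 156 ± 6.42 and 157 ± 8.89 CPM (SD, n = 3). MDM2 gave no call in any of the 8 comparisons in the fit over all libraries. Without Target-AID RNF2 replicate 3 it passed in Target-AID with RNF2 (0.281, adjusted p = 0.0244). Its nCas9 libraries held 339, 422 and 478 CPM with HEKsite2 and 418, 384 and 369 CPM with RNF2, and its log2 fold changes ran from -0.10 to 0.15.

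CCNG1 fell with Target-AID. Target-AID libraries held 420, 424 and 451 CPM against 501, 515 and 496 CPM in nCas9 with HEKsite2, a log2 fold change of -0.22 ± 0.0632 (adjusted p = 0.00403). With RNF2 they held 403, 434 and 444 CPM against 487, 496 and 446 CPM, a log2 fold change of -0.16 ± 0.0632 (adjusted p = 0.0481). The groups did not overlap, although the highest Target-AID library lay just under the lowest nCas9 library, and the call was lost without nCas9 replicate 1 (adjusted p = 0.132) or 2 (0.182), without Target-AID replicate 1 (0.209) or 2 (0.0678), with only the groups compared in the fit (0.119) and without the filter on low counts (0.0741). The globin reads, the lower HEK293 line markers and SERPINA1 of the Target-AID libraries moved with this result. Both calls held with the globin and growth hormone genes left out of the counts, a run that bears only on scaling. Neither the part of the globin reads nor that of the other markers was tested, and they cannot be told apart from the construct.

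CDKN1A (ENSG00000124762, chr6:36676460-36687339, plus strand) gave no call against nCas9 in the fit over all libraries. With HEKsite2 the nCas9 libraries held 73.9, 87.6 and 89.8 CPM and the Target-AID libraries 57.4, 67 and 72.4 CPM. The groups did not overlap, and the log2 fold change of -0.36 ± 0.149 missed the threshold (adjusted p = 0.0539). The adjusted p was 0.00193 with only those groups in the fit, 0.0378 without nCas9 replicate 1 and 0.0394 without Target-AID replicate 3. In SpACE with HEKsite2 the log2 fold change was -0.24, in miniABEmax-V82G with RNF2 -0.29 and in Target-AID and SpACE with RNF2 -0.20 and -0.17, none past the threshold. Whether CDKN1A passed depended on the fit. Without the filter on low counts SpACE with HEKsite2 (adjusted p = 0.0141), miniABEmax-V82G with RNF2 (0.00612) and Target-AID with both guides (7.33e-06 and 0.0362) passed, and with only the groups compared miniABEmax-V82G with RNF2 did (0.00377). Without the filter the log2 fold change of Target-AID with HEKsite2 was -0.372, so the effect size hardly moved while its adjusted p did. A replicate block within each guide, chosen after seeing the data, gave calls in the same comparisons. The adjusted p in edgeR was 0.0116 for SpACE with HEKsite2, 0.00792 for miniABEmax-V82G with RNF2, and 0.000123 and 0.0189 for Target-AID. In ABEmax the log2 fold changes were 0.08 (95% interval -0.22 to 0.38) with HEKsite2 and 0.03 with RNF2, and in miniABEmax-V82G with HEKsite2 0.03. BTG2 gave log2 fold changes from -0.19 to 0.18 and no call.

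The remaining members gave no call against nCas9. RRM2B, which supplies nucleotides for repair, ran from -0.13 to 0.25. Its largest value was SpACE with RNF2, where the libraries held 80.9, 84.6 and 74.5 CPM against 73.3, 69.6 and 59.2 CPM in nCas9, without overlap (adjusted p = 0.107). It passed the test without the filter on low counts (0.00781) and with only the groups compared (0.0201). ZMAT3 ran from -0.13 to 0.02 and TP53INP1 from -0.09 to 0.29. The highest value of TP53INP1, Target-AID with HEKsite2, passed the test without the filter (adjusted p = 0.0142), without nCas9 replicate 3 (0.0243) or without Target-AID replicate 1 (0.0467). Without Target-AID RNF2 replicate 3, the differences of Target-AID from nCas9 with RNF2 passed it for MDM2 (0.0244), RRM2B (0.0478) and TP53INP1 (0.0208). The widest spread was in TP53I3, from -0.32 to 0.37. Its libraries held 1.78 to 5.41 CPM. Its 95% interval for miniABEmax-V82G with HEKsite2 was -0.11 to 0.84, so this comparison fixes the change only loosely.

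Against GFP, which asks what the nickase or editor with its guide adds to a fluorescent protein alone, PPM1D rose and MDM2, RRM2B and TP53I3 fell in both nCas9 groups and with all 4 editors, while TP53INP1 and BTG2 gave no call. These comparisons share the 3 GFP libraries, and the nickase and the guide cannot be told apart, since GFP had no guide. Deviations from group means correlated weakly by replicate number between GFP and HEKsite2 libraries (median r 0.113 for same numbers, -0.0775 for different). Between GFP and RNF2 libraries they did not (-0.00937 and 0.00699). The labels do not say whether the groups of the 2 guides were handled together, so handling cannot be told apart from the guide either. PPM1D libraries held 83, 96.3 and 99.5 CPM in GFP and 114 to 164 CPM in the 30 others, with no overlap. Its log2 fold change was 0.49 ± 0.0697 in nCas9 with HEKsite2 and 0.58 ± 0.0694 with RNF2, and 0.49 to 0.75 in the editors, each taken as the mean of its 2 guides.

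MDM2, the ligase for p53, stood at 466, 576 and 562 CPM in GFP. It was lower in nCas9 by a log2 fold change of -0.37 ± 0.105 with HEKsite2 (adjusted p = 0.0046), where nCas9 replicate 3 overlapped the GFP libraries and the call was lost without nCas9 replicate 1 (0.0826). With RNF2 the log2 fold change was -0.45 ± 0.105, and in the editors it ran from -0.49 to -0.31. RRM2B stood at 99.3, 119 and 118 CPM in GFP, above all 30 other libraries. It fell by a log2 fold change of -0.33 ± 0.0984 in nCas9 with HEKsite2 and -0.74 ± 0.101 with RNF2, and by -0.52 to -0.44 in the editors; the difference between the nCas9 groups was not tested. TP53I3 libraries held 4.28, 5.08 and 5.41 CPM in GFP and 1.78 to 4.67 CPM in the others. Its log2 fold changes were -0.59 ± 0.226 and -0.55 ± 0.223 in nCas9 and -0.68 to -0.48 in the editors. With DESeq2 the calls were lost in both nCas9 groups (adjusted p = 0.0688 and 0.0867) and in miniABEmax-V82G (0.0602), and leaving out GFP replicate 2 or 3 ended the same 3 calls (0.0879 to 0.128). Those calls were also lost without nCas9 HEKsite2 replicate 2 (0.16) or 3 (0.105), nCas9 RNF2 replicate 1 (0.0648) or 2 (0.203), and miniABEmax-V82G HEKsite2 replicate 2 (0.0546) or RNF2 replicate 1 (0.103), each in its own comparison, and the SpACE call without GFP replicate 3 (0.0544).

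CCNG1 stood at 522, 541 and 555 CPM in GFP and was lower in nCas9 with RNF2 (-0.18 ± 0.0629) and with all 4 editors (-0.33 to -0.14). The nCas9 call was lost without GFP replicate 2 (adjusted p = 0.0508) or 3 (0.075) or nCas9 replicate 3 (0.138), and the SpACE call without GFP replicate 2 (0.0979) or 3 (0.148), SpACE HEKsite2 replicate 1 (0.134) or SpACE RNF2 replicate 3 (0.0901). CDKN1A went the other way from MDM2. GFP libraries held 46.1, 66.3 and 66.2 CPM, and nCas9 with HEKsite2 was higher at 73.9 to 89.8 CPM (log2 fold change 0.49 ± 0.15, adjusted p = 0.0081), as was ABEmax (0.46 ± 0.131, 0.00286). Both calls were lost without GFP replicate 1, the lowest library (adjusted p = 0.0957 and 0.0684). nCas9 with RNF2 gave 0.33 (adjusted p = 0.0767) and the other editors 0.13 to 0.28, with no call. Without the filter on low counts CDKN1A passed the test in nCas9 with RNF2 (0.000347), miniABEmax-V82G (0.00026) and SpACE (0.0109). With only the groups compared it passed in nCas9 with RNF2 (0.00248) and miniABEmax-V82G (0.0113). The miniABEmax-V82G difference also passed without GFP replicate 2 (0.049) or miniABEmax-V82G HEKsite2 replicate 1 (0.0188). GADD45A rose in all 4 editors against GFP, by 0.51 to 0.90, and ZMAT3 fell in miniABEmax-V82G (-0.30, adjusted p = 0.042, and 0.116 with DESeq2). In ABEmax, Target-AID and SpACE the log2 fold changes of ZMAT3 were -0.23, -0.24 and -0.25, which missed the threshold and passed it without the filter on low counts (0.00152, 0.000392 and 0.00156), as did nCas9 with HEKsite2 (-0.23, 0.0146). That ZMAT3 call was lost without GFP replicate 2 (0.216) or 3 (0.205), miniABEmax-V82G HEKsite2 replicate 1 (0.137) or miniABEmax-V82G RNF2 replicate 1 (0.0823) or 3 (0.0562). Without GFP replicate 1 the ZMAT3 differences of ABEmax, Target-AID and SpACE passed the test (0.0182 to 0.0254), as did BTG2 in Target-AID (0.042).

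Of the 10 members, 2 were higher and 3 lower in nCas9 with HEKsite2 against GFP, where 19.6% and 18.8% of all tested genes were called. With RNF2 1 was higher and 4 lower (21% and 20.5%). In ABEmax 3 were higher and 4 lower (27% and 27%), in miniABEmax-V82G 2 and 5 (24.2% and 24.3%), in Target-AID 2 and 4 (27.4% and 24.6%) and in SpACE 2 and 4 (21.4% and 21.9%). The median log2 fold change of the members was -0.24 to -0.11, beside 0 to 0.02 for all genes tested.

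**Figure D3:**
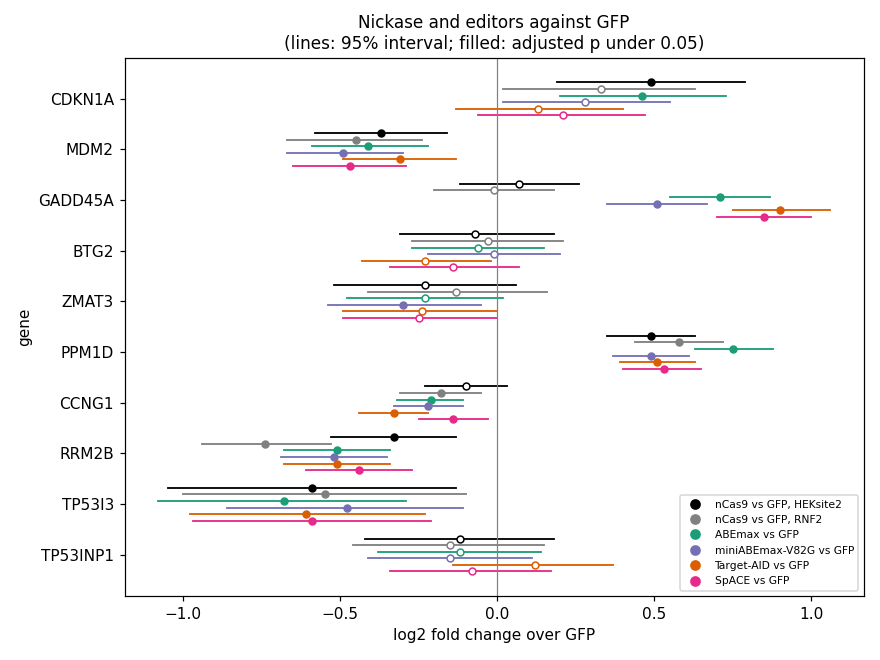
Log2 fold change of each gene over GFP in nCas9 with either guide and in each editor (mean of the 2 guide groups); lines are 95% intervals from the edgeR fit and filled points have an adjusted p under 0.05. PPM1D lies to the right of 0 and MDM2, RRM2B and TP53I3 to the left in all 6 comparisons, while GADD45A is right of 0 in the 4 editors and near 0 in nCas9.

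SpACE was set beside its single-function counterparts, with the guides averaged. GADD45A was higher in SpACE than in miniABEmax-V82G by a log2 fold change of 0.34 ± 0.0598 (adjusted p = 0.000507), and within each guide the libraries did not overlap. Between SpACE and Target-AID its difference was -0.05 (95% interval -0.17 to 0.06). CCNG1 was higher in SpACE than in Target-AID by 0.19 ± 0.0446 (adjusted p = 0.000873). Each comparison had 1 member higher and 0 lower. The background was 3.21% higher and 2.74% lower against miniABEmax-V82G, and 14.9% and 17.2% against Target-AID.

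Whether an editor's difference from nCas9 depended on the guide was tested as an interaction, and 0 members were called. Over all genes 0% were called for ABEmax, 0.0137% for miniABEmax-V82G, 0.164% for Target-AID and 0.0274% for SpACE. The rise of GADD45A was smaller with RNF2 than with HEKsite2 by 0.34 ± 0.13 on the log2 scale in ABEmax (signed value -0.34, unadjusted p = 0.0117, adjusted p = 1) and by 0.30 in miniABEmax-V82G (-0.30, 0.027, 0.729). In Target-AID and SpACE the interaction was -0.10 and -0.14. The smallest unadjusted p of a member was that of PPM1D in SpACE (-0.28 ± 0.0966, unadjusted p = 0.00611, adjusted p = 0.536, edgeR), which stood at 0.13 over nCas9 with HEKsite2 and at -0.15 with RNF2, neither of them called. RRM2B gave 0.32 in Target-AID (adjusted p = 0.543, edgeR) and 0.30 in SpACE (0.659).

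For several members the lowest replicate carried the same number in group after group. With HEKsite2, replicate 1 was the lowest library in 5 of 5 groups for CDKN1A, MDM2, ZMAT3, RRM2B and TP53INP1, and in 4 of 5 for BTG2. With RNF2, replicate 3 was the lowest in 5 of 5 groups for CDKN1A, RRM2B and TP53INP1, and in 4 of 5 for MDM2, BTG2 and PPM1D. CDKN1A in the HEKsite2 groups was 57.4 to 73.9 CPM in replicate 1 and 72.4 to 104 CPM in replicate 3. In the RNF2 groups it was 64.5 to 83.1 CPM in replicate 1 and 53.8 to 65.6 CPM in replicate 3. So the library lowest in p21 mRNA carried number 1 with one guide and number 3 with the other.

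The size of this shift was largest in ZMAT3 with HEKsite2, where replicate 3 exceeded replicate 1 by a median of 0.48 on the log2 scale over the 5 groups (range 0.36 to 0.79). TP53INP1 gave 0.39 (0.06 to 0.82), CDKN1A 0.34 (0.28 to 0.65), MDM2 0.26 (0.16 to 0.49) and RRM2B 0.24 (0.14 to 0.30). With RNF2 the median was -0.29 for CDKN1A (-0.47 to -0.20), -0.25 for RRM2B and -0.20 for TP53INP1. For GADD45A the medians were 0.10 with HEKsite2 and -0.02 with RNF2, for CCNG1 0.04 and -0.12, and for TP53I3 -0.08 and 0.13. Over all genes tested the median was -0.01 with each guide, and the 5th to 95th percentiles were -0.26 to 0.34 with HEKsite2 and -0.24 to 0.38 with RNF2. In GFP, which has no guide, replicate 1 was the lowest library for all 10 members and for 36.7% of all genes tested.

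The pattern was looked for after the values had been seen, and no test was made of it. Replicate 1 was lowest in all 5 HEKsite2 groups for 1.81% of the 14613 tested genes, beside 5 of the 10 members and 14 of 37 other p53 target genes. Replicate 3 was lowest in all 5 RNF2 groups for 1.05%, beside 3 of 10 and 6 of 37. Both held for 13 genes in all, and 6 of these 13 were p53 targets: CDKN1A, RRM2B and TP53INP1, and from the other list IER5, RPS27L and TIGAR. Of 28 immediate early genes, IER5 among them, 3 showed the HEKsite2 pattern and 1 the RNF2 pattern. Of 22 genes on p53 regulation, 2 and 0 did. Of 30 cell cycle genes that p53 lowers through p21, 0 showed either pattern. Only the lowest library was looked for, so this count could not show genes that run opposite to p53 targets. Under RLE, another scaling of library sizes, 12 genes showed both, the same 6 p53 targets among them. With HEKsite2 the total counts were 6856513 to 9749096 in replicate 1 and 7453087 to 8863422 in replicate 3, and with RNF2 they were 7144617 to 9601841 and 7419401 to 9571720, so depth overlapped. What the replicate numbers share is not given in the labels, and its part in the pattern was not tested.

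**Figure D4:**
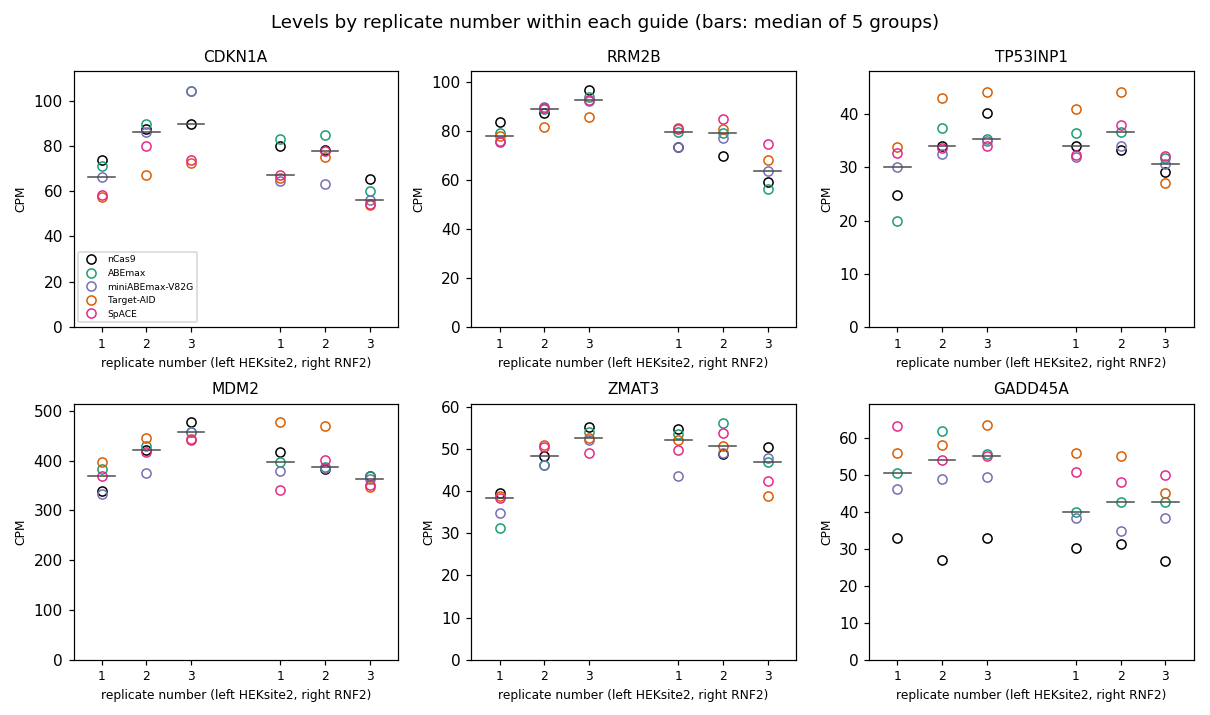
Levels in CPM (linear axis from 0) of 6 genes by replicate number, HEKsite2 groups on the left and RNF2 groups on the right of each panel; circles are single libraries coloured by construct and bars the median of 5 groups. CDKN1A, RRM2B and TP53INP1 are lowest in replicate 1 with HEKsite2 and in replicate 3 with RNF2, whereas GADD45A separates nCas9 from the editors and not the replicates.

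Of 22 tested genes of a list on p53 regulation, 1 to 10 were higher and 0 to 4 lower per editor comparison with nCas9. Over all genes tested, 5.02% to 21.5% were higher and 4.66% to 19.1% lower. In the list TP53BP2, which steers p53 toward cell death genes, rose in 8 of 8 comparisons (0.15 to 0.38). USP7, a deubiquitinase of MDM2 and p53, rose in 6 (0.09 to 0.32 over the 8), and MDM4, the relative of MDM2 that holds p53 inactive, in 3 (0.09 to 0.56). DAXX fell in 5 (-0.51 to -0.03), while the coactivator CREBBP and the kinase ATR rose in 4 each (-0.19 to 0.44 and -0.16 to 0.51).

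The 37 other p53 targets tested gave between 1 and 11 genes higher and between 1 and 8 lower per editor comparison with nCas9. Over all genes tested, 5.02% to 21.5% were higher and 4.66% to 19.1% lower in these comparisons. The 11 higher were in ABEmax with HEKsite2 (background 8.31%) and the 8 lower in Target-AID with RNF2 (15.8%). SESN2, an inhibitor of mTORC1 signalling that also belongs to the stress response below, rose in 8 of 8 (0.36 to 1.05), and TRIAP1, an apoptosis inhibitor, fell in 7 (-0.44 to -0.21). The secreted factor GDF15 rose in 3 and fell in 2 (-1.04 to 0.79), the decoy receptor TNFRSF10D likewise (-0.43 to 0.29), and the death receptor TNFRSF10B rose in 2 and fell in 2 (-0.30 to 1.84). IER5, also an immediate early gene, rose in 4 (0.23 to 1.54). Medians of the list were -0.08 to 0.11.

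Genes of 2 stress programmes moved in the same comparisons as GADD45A, and their part in its rise was not tested. Of 30 integrated stress response genes, 14 to 26 were higher and 0 to 6 lower per comparison with nCas9, with medians of 0.23 to 0.63. The background of these comparisons, for this list and the next 2, was 5.02% to 21.5% of all tested genes higher and 4.66% to 19.1% lower. The factor ATF3 rose in 8 of 8 (1.17 to 2.49), as did PPP1R15A, also called GADD34 (0.65 to 1.09), the glutathione-degrading enzyme CHAC1 (0.48 to 1.00) and DDIT4, an mTORC1 inhibitor (0.23 to 1.36). Of 28 immediate early genes, 6 to 12 were higher and 0 to 3 lower, and DUSP1 (0.85 to 2.59), CYR61 (0.61 to 1.55) and JUN (0.32 to 1.15) rose in 8 of 8. Of 30 cell cycle genes lowered by p53 through p21, 1 to 6 were higher and 0 to 8 lower. PCNA fell in 6 of 8 (-0.61 to -0.18), E2F1 rose in 3 and fell in 2, and FOXM1 fell in 4. Against GFP 6 of these 30 cell cycle genes were higher and 17 to 22 lower in each of the 6 comparisons, with medians of -0.34 to -0.23. There 19.6% to 27.4% of all tested genes were higher and 18.8% to 27% lower.

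Of 18 tested relatives of the members, 1 to 6 were higher and 2 to 8 lower per editor comparison with nCas9. Over all genes tested, 5.02% to 21.5% were higher and 4.66% to 19.1% lower. BTG3 rose (0.36 to 0.62) and ZMAT2 fell (-0.47 to -0.18) in 8 of 8 comparisons with nCas9, whereas their relatives BTG2 and ZMAT3 gave no call. CDKN1C, which encodes the p21 relative p57, fell in 6 (-1.19 to -0.38) and CCNG2 in 6 (-0.75 to -0.09). GADD45B rose in 2 (-0.30 to 1.24) and GADD45G in 1 (0.03 to 1.49). The other relatives were called in 0 to 4 comparisons, with log2 fold changes from -0.88 to 0.56.

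The genes whose group means followed a member most closely over the 11 groups (Pearson's r of log2 CPM among 10230 genes, a description, since all groups enter both) were HSPB1 (r = 0.975), AMOTL2 (0.967) and DNAJB2 (0.961) for GADD45A. For MDM2 they were USP40 (0.968), LPAR3 (0.966) and NEK9 (0.959), for CDKN1A RNA28S5 (0.923), SNAPC3 (0.903) and DXO (0.89), and for BTG2 HSP90B1 (0.893), TTC9C (0.881) and PDIA4 (0.873). Among the members themselves MDM2 and RRM2B followed each other most closely (r = 0.78) and PPM1D and RRM2B ran most opposite (-0.71). GFP had the highest group mean of MDM2 (534 CPM, next 432) and RRM2B (112 CPM, next 89.1). It had the lowest of PPM1D (92.9 CPM, next 124). Both values of r may therefore rest largely on GFP, and r without GFP was not computed.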

How the data were processed

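The authors deposited 1 table of read counts per gene symbol for the 33 libraries, with counts not normalised. Per the labels' protocols, total RNA was made into libraries with a stranded total RNA kit. The submitters' processing notes name STAR, GATK 3.8.1 and Picard 2.7 with the GRCh38 (hg38) build and do not give their roles. How reads were assigned to genes (tool, strandedness, gene models) is not given in the sources used here. Column names identified each sample through its construct, its guide and its number, and no 2 libraries held identical counts.

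A single model held all 33 libraries, with a mean for each group and 22 residual degrees of freedom, in edgeR 4.0.16 (limma 3.58.1, R 4.3.3), after filterByExpr and TMM scaling. The tests were edgeR's quasi-likelihood F-tests, with p-values adjusted by Benjamini and Hochberg over all 14613 genes tested; called means an adjusted p under 0.05. SEs and 95% intervals come from that fit. CPM use TMM-scaled library sizes, and their precision is limited by total counts of 6790209 to 11200406 per library. Exon lengths and positions are from GENCODE 29. The procedure was tested on simulated data before use.

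Named genes were all 10 members, up to 6 from each of the other p53 lists and up to 4 from each stress or cell cycle list by number of calls against nCas9, MDM4 always, and 3 nearest genes for each of 4 members. Some genes that this rule names are not reported here. The members and lists were chosen with earlier results of these data known. Alternatives were RLE scaling, no filter, DESeq2 1.42.0, replicate blocks, only the groups compared, the globin genes left out and each library left out. Figures were drawn with matplotlib 3.10.9 in Python 3.11.15. The samples were grouped by their labels, and no sample was left out.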

Additional observations from a re-analysis of the deposited data

How the results depend on the processing

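Under RLE scaling and without the globin and growth hormone genes, 200 of 200 log2 fold changes of the members kept their side of the threshold, and no called value of a member reversed under any alternative run. Without a filter on low counts, members called were 4 for Target-AID and 2 for SpACE with HEKsite2, 2 each for miniABEmax-V82G and SpACE with RNF2, and 3 for SpACE against Target-AID, and genes called in the tests by guide were 5 for ABEmax, 18 for miniABEmax-V82G, 55 for Target-AID and 44 for SpACE. With only the groups compared, members called with RNF2 were 2 for ABEmax, 3 for miniABEmax-V82G, 1 for Target-AID and 2 for SpACE, and genes called were 2865 for miniABEmax-V82G with RNF2 and, by guide, 5 for miniABEmax-V82G and 1 for Target-AID. DESeq2 called 2 genes by guide for ABEmax and 1 for miniABEmax-V82G, and with the globin genes left out 1 was called for the latter. With 0 mismatches per half-site, 0 of the 7 member promoters searched held one.

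Same-numbered libraries correlated at over 0.1 in every pair in only 1 of the 8 editor and nCas9 comparisons (ABEmax with RNF2), so the numbers were not taken as pairing. The shift of several members by replicate number therefore stayed in the spread that the tests used. Between libraries of different groups the median r was 0.0532 for the same number and -0.0265 for different numbers. Of 33 libraries, 25 lay closest to libraries of their own number, as a hint from the data. With the replicate block CDKN1A passed the threshold in Target-AID with HEKsite2 (-0.358, adjusted p = 0.033, edgeR) and against GFP in nCas9 with RNF2 (0.34) and miniABEmax-V82G (0.288), 0 member calls were lost, and 7 genes were called for SpACE by guide. With a replicate block within each guide, chosen after seeing the data, members called were 4 for Target-AID and 2 for SpACE with HEKsite2, 2, 2, 4 and 2 for ABEmax, miniABEmax-V82G, Target-AID and SpACE with RNF2, and 3 for SpACE against Target-AID. CDKN1A was then called lower in Target-AID (-0.354) and SpACE (-0.243) with HEKsite2 and in miniABEmax-V82G (-0.286) and Target-AID (-0.212) with RNF2. Calls were also gained higher for PPM1D in ABEmax with RNF2 (0.174, adjusted p = 0.0458, edgeR), RRM2B in Target-AID (0.181) and SpACE (0.244) with RNF2 and TP53INP1 in Target-AID with HEKsite2 (0.295), and lower for MDM2 (-0.152) and TP53INP1 (-0.192) in SpACE against Target-AID.

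Leaving out each library in turn, genes called against nCas9 ran from 1445 to 2163 for ABEmax and 858 to 1197 for miniABEmax-V82G with HEKsite2, and with RNF2 from 827 to 1311 for ABEmax, 874 to 1495 for miniABEmax-V82G and 1432 to 1768 for SpACE. They ran from 469 to 986 for SpACE against miniABEmax-V82G, and by guide from 7 to 39 for Target-AID and 1 to 2 for miniABEmax-V82G. Members called ran from 1 to 2 for ABEmax with HEKsite2, 0 to 1 for miniABEmax-V82G and 1 to 5 for Target-AID with RNF2, 3 to 5 for nCas9 with RNF2 against GFP and 1 to 3 for SpACE against Target-AID. The cause of these changes was not tested.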
